A study of Neurospora crassa with 18 samples.

Results

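Poly-A RNA of a set-2 deletion strain of the filamentous fungus Neurospora crassa was compared with that of a wild-type (WT) strain, gene by gene, using all RNA count files of these strains, 2 libraries each and so 4 of the 8 RNA libraries of the series. The Δset-2 strain (N5761) is mating type a and carries an hph resistance cassette at set-2. The WT strain (N623) is mating type A and carries a his-3 mutation. Both were germinated conidia, that is, asexual spores that had begun to grow, and the study describes the libraries as duplicate biological replicates. The strains therefore also differ at the mating-type locus and at his-3, and effects of these differences and of set-2 loss cannot be told apart. Of 9730 genes counted, 7741 had enough reads to be tested. Beside them stand 2 libraries of a Δmus-52, his-3, mating type A parent strain (N2930) and 2 of ash1(Y888F) (N4878), a strain of mating type A with his-3, whose ash1 gene, for the other H3K36 methyltransferase, carries a point mutation in the catalytic domain, a 3xFLAG tag and an hph cassette.

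SET-2 is the methyltransferase that travels with RNA polymerase II and methylates lysine 36 of histone H3 along transcribed genes. In yeast, this mark recruits a deacetylase that keeps transcription from starting inside genes. N. crassa has a second enzyme for the same residue, ASH1, which marks genes that are transcribed little, many of which also carry methylated H3K27. Germinating conidia leave dormancy by raising respiration, mitochondrial protein import, ribosome production and the synthesis of amino acids and nucleotides, and later extend as hyphae that fuse with each other and can form new conidia or sexual structures.

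Reads counted in genes were 7593750 and 7317786 in the Δset-2 libraries, against 7469922 and 8103382 in the WT libraries. Spearman's rho over genes was 0.985 within each strain and 0.909 to 0.945 between them. The source files of both Δset-2 libraries share a number string in their names with ash1(Y888F) library 2, whereas the WT and parent libraries share another. What the string marks is not stated, so a difference in handling and the strain cannot be told apart, and median values of the ash1(Y888F) libraries are given beside most gene groups below.

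The set-2 gene itself (LG III, 3236473 to 3240984, NC12) still had 46 and 50 counts in Δset-2, against 120 and 153 in WT, a log2 difference of −1.61 ± 0.27 (edgeR quasi-likelihood test, Benjamini-Hochberg adjusted p = 0.0095). How much of the gene the deletion removes is not given in the sources used here, so the source of these reads cannot be told. The 3 neighbours with reads were all higher in Δset-2. NCU00268, whose start faces that of set-2 across 3708 bp, had 786 and 757 counts in Δset-2 and 171 and 122 in WT (log2 2.28 ± 0.24, adjusted p = 0.0031). NCU00267, 154 bp beyond it on the same strand, had 82 and 72 counts in Δset-2 and 2 and 6 in WT (log2 4.12 ± 0.49, adjusted p = 0.0040). On the other side NCU00270, which ends 1137 bp from the end of set-2, had 547 and 526 counts in Δset-2 and 293 and 290 in WT (log2 0.77 ± 0.17, adjusted p = 0.022, and 0.12 without WT library 2). The next gene, NCU00271, had no count in any of the 4 libraries. Reads of his-3 did not separate the strains, with 2519 and 2343 counts in Δset-2 and 2785 and 2375 in WT, so this gene does not check the label. Of the genes particular to mating type A, matA-1 had 0 and 0 counts in Δset-2 and 13 and 15 in WT, matA-2 was at 0 in all 4 libraries, and matA-3 had 0 and 0 in Δset-2 and 0 and 1 in WT. The call of matA-1 was lost without WT library 2. The ash1 gene, listed under the symbol set-3, had 179 and 181 counts in Δset-2 and 668 and 675 in WT (log2 −2.01 ± 0.18, adjusted p = 0.0018).

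In Δset-2, RNA was higher for 1677 genes, 21.7% of those tested, and lower for 1534, or 19.8%, at an adjusted p under 0.1. Higher genes moved farther. The median change was 2.61-fold among the higher genes and 2.09-fold among the lower ones, and over 4-fold changes were called for 506 higher genes (6.54%) and 184 lower genes (2.38%). Single libraries weighed on these counts. Without WT library 2 there were 755 higher and 695 lower genes, and without Δset-2 library 2 there were 997 and 841. The median over all genes tested was 0.01.

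**Figure D1:**
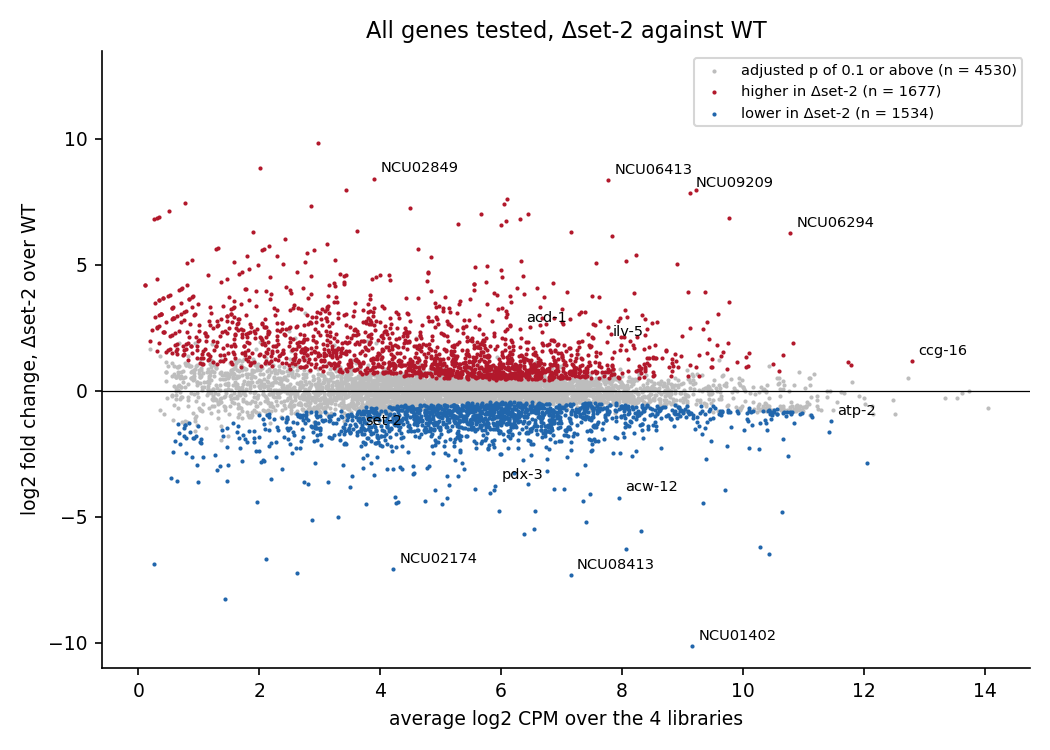
Log2 fold change of Δset-2 over WT (y axis) against average log2 CPM (counts scaled to library size) over the 4 libraries (x axis) for the 7741 genes tested, coloured by call. More higher than lower genes lie beyond 4-fold (506 and 184), and the lowest point is NCU01402 at −10.13.

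Genes of mitochondrial protein import were lower as a group. Of 26 such genes, 21 fell and none rose, with a median log2 change of −0.99, against 19.8% lower and a median of 0.01 among all genes tested. tim44, which tethers the import motor to the inner membrane, had 416 and 316 counts in Δset-2 and 1111 and 1717 in WT (log2 −2.05 ± 0.26, adjusted p = 0.0046). tim17, a subunit of the inner-membrane channel, had 392 and 324 counts in Δset-2 and 970 and 1379 in WT (log2 −1.82 ± 0.22, adjusted p = 0.0041). In the outer membrane, tob55, which inserts barrel proteins, had 433 and 392 counts in Δset-2 and 814 and 997 in WT, and tom7 had 567 and 514 in Δset-2 and 1078 and 1376 in WT (log2 −1.24 ± 0.18 and −1.29 ± 0.19). The Δset-2 values of all these genes lay below both WT values. By CPM, 96.2% of the group lay below both in each Δset-2 library, against 43.1% and 44.5% of all genes tested. The share of the group was also high in other strains, at 73.1% and 88.5% in ash1(Y888F) and 80.8% and 46.2% in the parent. Among all genes tested it was 42.9% and 43.0% in ash1(Y888F), and 37.2% and 39.1% in the parent. The receptors tom20, tom22 and tom70 fell by 0.92, 1.23 and 1.03 on the log2 scale, and the channel tom40 fell by 0.88. The 5 genes that did not pass were tob38, tim9, mdm10, mdm12 and mim1, with log2 values between −0.54 and 0.06. Without WT library 2 there were 12 lower genes and without Δset-2 library 2 there were 13, and tom20, tom40 and tim14 were not called in either case. Against the parent, mpp and tim14 missed the threshold (edgeR adjusted p = 0.13 for both).

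The respiratory chain did not move as a whole. None of 29 subunit genes of complex I passed in either direction, and their log2 values ran only from −0.47 to 0.39 (median −0.08). Of 22 other genes of the chain and the ATP synthase, 12 fell and none rose, with a median of −0.77. cyc-1, which encodes cytochrome c, had 4376 and 2190 counts in Δset-2 and 10676 and 19483 in WT (log2 −2.29 ± 0.45, adjusted p = 0.015). The ATP synthase subunit genes atp-1 and atp-2 had 10175 and 6748, and 15584 and 11218 counts in Δset-2, against 17237 and 21123, and 26739 and 31104 in WT (log2 −1.29 ± 0.33 and −1.22 ± 0.34, adjusted p = 0.031 and 0.039). The enzymes that bypass complex I fell too, namely the external NADH dehydrogenase nde-2 (957 and 674 counts in Δset-2, 1975 and 3465 in WT, log2 −1.83 ± 0.31) and the internal one ndi-1 (98 and 94 in Δset-2, 175 and 361 in WT, log2 −1.57 ± 0.34). cya-5, needed for cytochrome oxidase, had 76 and 68 counts in Δset-2 and 146 and 235 in WT. The alternative oxidase gene aod-1 showed the lowest log2 value of the group, −2.71 ± 0.31, with 1483 and 1353 counts in Δset-2 and 6274 and 11019 in WT. It was also low in the parent, with 1182 and 1871 counts, and Δset-2 differed from the parent by −0.02 (adjusted p = 0.95). Without WT library 2 only 5 of the 22 genes were lower, and atp-1 and atp-2 were not among them (adjusted p = 0.15 and 0.16). Without Δset-2 library 2, or without WT library 1, atp-2 had an adjusted p of 0.11.

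**Figure D2:**
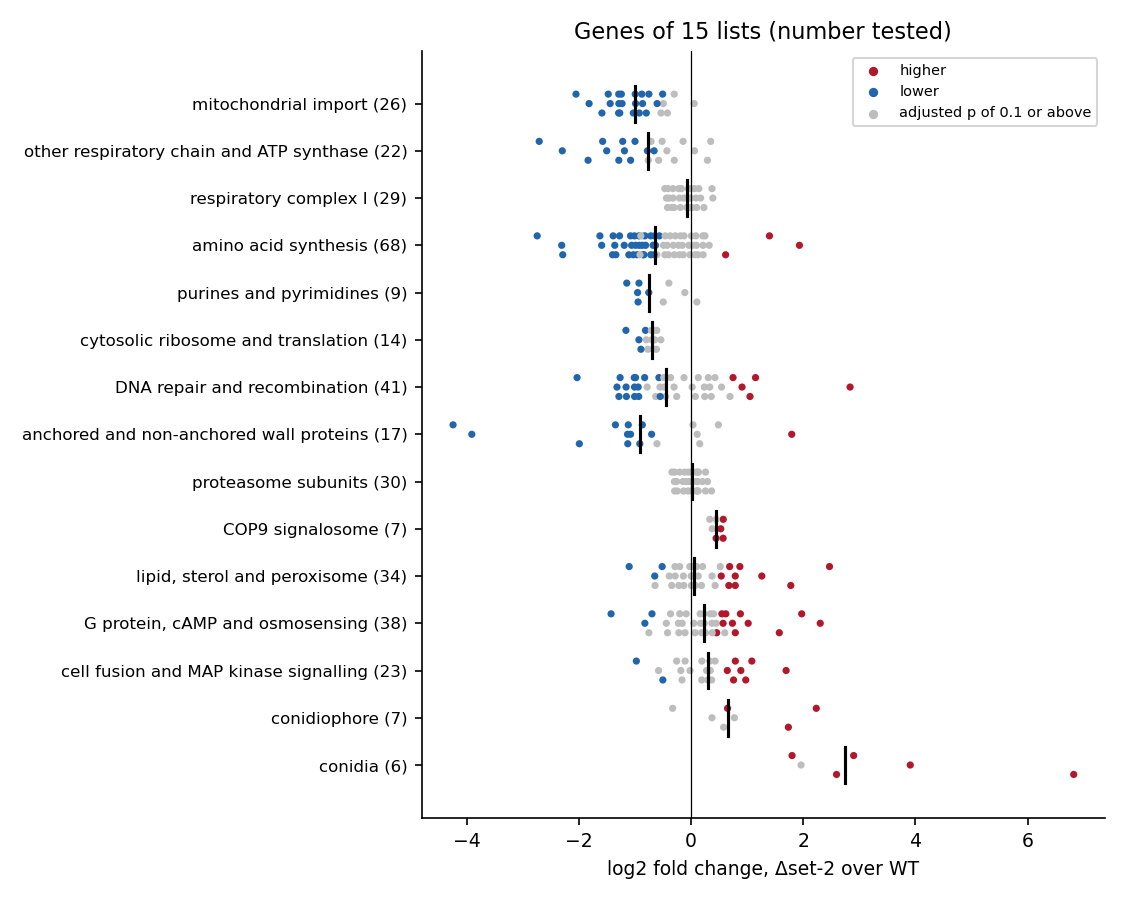
Log2 fold change of Δset-2 over WT (x axis) for each gene tested in 15 groups (y axis, with the number of genes), coloured by call, with the median of each group as a black bar. Mitochondrial import lies left of 0 except for 1 gene, complex I stays within −0.47 to 0.39, and the conidia genes lie between 1.80 and 6.82.

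ash1(Y888F) library 2 was also low for these groups. Relative to the WT mean, the median log2 ratio of the import genes was −0.95 and −1.17 in the Δset-2 libraries, −0.46 and −1.01 in ash1(Y888F) libraries 1 and 2, and −0.37 and −0.15 in the parent. For the other respiratory genes it was −0.72 and −1.004 in Δset-2, −0.12 and −0.89 in ash1(Y888F), and −0.15 and −0.0032 in the parent. Both groups were thus about as low in the ash1(Y888F) library that shares the number string with Δset-2 as in the Δset-2 libraries, and the part of the string in these results was not tested.

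**Figure D3:**
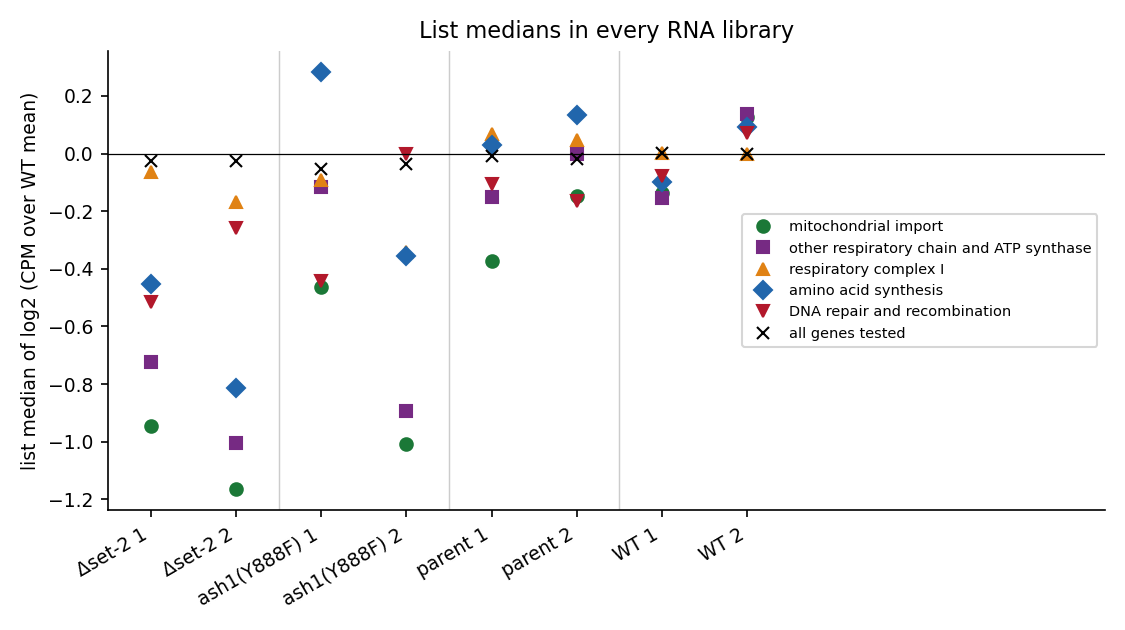
Median log2 ratio of CPM over the WT mean (y axis) of 5 gene groups and of all genes tested in each of the 8 RNA libraries (x axis). Import genes sit at −0.95 and −1.17 in Δset-2 and at −1.01 in ash1(Y888F) library 2, while complex I lies between −0.34 and 0.07 in all libraries.

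Amino acid metabolism was lower in Δset-2 for many genes at once. Of 68 genes of this group, 32 fell (47.1%) and 3 rose (4.41%), with a median log2 value of −0.64. Among all genes, 19.8% were lower and 21.7% higher. arg-13, the mitochondrial carrier of basic amino acids, had 89 and 66 counts in Δset-2 and 381 and 587 in WT (log2 −2.74 ± 0.28, adjusted p = 0.0028). leu-5 encodes the mitochondrial leucyl-tRNA synthetase and so is not an enzyme of synthesis. It had 150 and 141 counts in Δset-2 and 570 and 768 in WT (log2 −2.30 ± 0.20, adjusted p = 0.0019). trp-1, which acts at several steps of tryptophan synthesis, had 512 and 402 counts in Δset-2 and 797 and 1035 in WT (log2 −1.11 ± 0.21). cys-3, the activator of sulfur uptake and assimilation genes, had 1478 and 1336 counts in Δset-2 and 3131 and 3468 in WT (log2 −1.34 ± 0.19, adjusted p = 0.0063). No value of these 4 genes overlapped between the strains. Below both WT libraries lay 64.7% and 79.4% of the group in Δset-2 libraries 1 and 2. The shares among all genes tested were 43.1% and 44.5%. In ash1(Y888F) libraries 1 and 2 the share of the group was 23.5% and 76.5%, against 42.9% and 43.0% of all genes tested. A high share was thus also seen in ash1(Y888F) library 2, but not in ash1(Y888F) library 1. In the parent libraries the share of the group lay below that of all genes tested. The 3 higher genes were ilv-5, of isoleucine and valine synthesis, with 2603 and 2779 counts in Δset-2 and 628 and 678 in WT (log2 1.93 ± 0.18, adjusted p = 0.0023), the glutamine synthetase gene gln-1 with 10638 and 7649 in Δset-2 and 2558 and 3914 in WT (log2 1.40 ± 0.30), and the sulfate permease gene cys-14 at 0.62 ± 0.20. gln-1 did not pass without WT library 1 (adjusted p = 0.11) or against the parent (log2 0.41, adjusted p = 0.28), and cys-14 did not pass without Δset-2 library 2, WT library 1 or WT library 2. Lower counts were 9 without WT library 2 and 15 without Δset-2 library 2. The median log2 ratio to WT of the group was −0.45 and −0.81 in Δset-2, and 0.28 and −0.35 in ash1(Y888F).

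Nucleotide synthesis and the small ribosomal group were lower too, with weaker calls. Of 9 purine and pyrimidine genes, 5 fell and none rose (median −0.75). They were ad-3A, ad-5, ad-7, gua-3 and pyr-3, with log2 values from −0.75 to −1.14. ad-7, the enzyme of the first committed step of purine synthesis, had 709 and 444 counts in Δset-2 and 941 and 1438 in WT (log2 −1.14 ± 0.29, adjusted p = 0.032). None of the group was called without Δset-2 library 2 or without WT library 2, and 3 were without WT library 1. The median log2 ratio of the 9 genes to WT was −0.65 and −0.95 in Δset-2, and 0.46 and −0.66 in ash1(Y888F). All 14 genes of ribosomal proteins and translation had negative log2 values (median −0.70), of which 4 were called. That count was 13 with DESeq2, 12 without Δset-2 library 1 and 0 when any of the other 3 libraries was left out. The median log2 ratio of these 14 genes to WT was −0.47 and −1.09 in Δset-2, and −0.14 and −0.98 in ash1(Y888F).

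Among 19 genes of vitamins and cofactors, 5 fell (26.3%, against 19.8% of all genes) and 2 rose, and the vitamin B6 genes had the lowest log2 values. pdx-3 had 57 and 72 counts in Δset-2 and 774 and 852 in WT, a log2 difference of −3.76 ± 0.21 (adjusted p = 0.00093), and it had 1393 and 770 counts in ash1(Y888F). pdx-1 and pdx-2, which encode the subunits of pyridoxal phosphate synthase, are transcribed away from each other with 809 bp between them on LG IV. pdx-2 had 1172 and 652 counts in Δset-2 and 2935 and 3053 in WT (log2 −1.82 ± 0.31, adjusted p = 0.0098). pdx-1 had 8302 and 4054 counts in Δset-2 and 14148 and 13703 in WT (log2 −1.28 ± 0.39, adjusted p = 0.053), and it missed the threshold without Δset-2 library 2, WT library 1 or WT library 2 (adjusted p = 0.12, 0.16 and 0.17). The riboflavin gene rib-3 went the other way, with 1638 and 1335 counts in Δset-2 and 364 and 327 in WT (log2 1.99 ± 0.21, adjusted p = 0.0030). The median log2 ratio of the group to WT was −0.22 and −0.40 in Δset-2, and 0.19 and −0.11 in ash1(Y888F). It had 3 lower genes without WT library 2, and 2 without WT library 1 or Δset-2 library 2.

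Cell wall genes moved in both directions. Of 17 anchored (acw) and non-anchored (ncw) wall protein genes, 11 fell and 1 rose, with a median of −0.91. acw-12 had 219 and 173 counts in Δset-2 and 3333 and 3536 in WT (log2 −4.24 ± 0.23, adjusted p = 0.00093). ncw-3 had 2290 and 2233 counts in Δset-2 and 9413 and 7123 in WT (log2 −1.99 ± 0.27), and ncw-5 had 34 and 59 in Δset-2 and 904 and 369 in WT (log2 −3.91 ± 0.54). ncw-6 was the exception, with 442 and 446 counts in Δset-2 and 158 and 76 in WT (log2 1.80 ± 0.37, adjusted p = 0.017). The gel genes, of glucan-remodelling transferases, moved apart. gel-1 had 228 and 315 counts in Δset-2 and 32 and 29 in WT (log2 3.04 ± 0.29, adjusted p = 0.0025), and gel-4 had 866 and 437 in Δset-2 and 2542 and 4716 in WT (log2 −2.57 ± 0.42, adjusted p = 0.0089). In the whole wall group of 39 genes, 37 of them tested, 14 fell and 6 rose, with the chitinase genes gh18-4, gh18-5, gh18-7 and gh18-8 among the higher ones. Of these only gh18-4 was also called when Δset-2 library 2 or WT library 2 was left out. None of the 5 chitin synthase genes of the group passed, with log2 values from −0.32 to 0.72. For the acw and ncw genes the median log2 ratio to WT was −0.81 and −1.06 in Δset-2, and 0.14 and −0.34 in ash1(Y888F). Leaving out WT library 2 gave 7 lower genes among the 17, and 9 lower and 3 higher genes in the whole wall group.

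Ion and phosphate transporters included large changes of single genes. The high-affinity phosphate permease gene pho-4 had 20 and 7 counts in Δset-2 and 167 and 383 in WT (log2 −4.43 ± 0.58, adjusted p = 0.0051). The permease gene pho-5 was opposite to it, with 63 and 134 counts in Δset-2 and 7 and 17 in WT (log2 2.92 ± 0.56, adjusted p = 0.013, and 1.13 against the parent). nca-3, a calcium pump, had 508 and 330 counts in Δset-2 and 59 and 42 in WT (log2 2.93 ± 0.33, adjusted p = 0.0035), whereas the calcium pump gene nca-2 fell by 0.99 and missed the threshold without WT library 2 and against the parent (adjusted p = 0.11 and 0.19). Of the potassium transporters, hak-1 had 3883 and 6613 counts in Δset-2 and 884 and 574 in WT (log2 2.72 ± 0.38, adjusted p = 0.0057), and trk had 91 and 96 in Δset-2 and 165 and 219 in WT (log2 −1.14 ± 0.24). hak-1 was at 144 and 1976 counts in ash1(Y888F), so its level differed between those 2 libraries as well. In the vacuolar ATPase and ion transport group 5 of 24 genes rose and 3 fell (median 0.08), and in the nitrogen, phosphate and sulfur group 6 of 23 rose and 6 fell (median 0.01), beside 21.7% higher and 19.8% lower among all genes. The median log2 ratios of these groups to WT were 0.15 and 0.040, and 0.029 and 0.056 in Δset-2, against −0.13 and −0.18, and 0.30 and 0.13 in ash1(Y888F). Higher calls in them numbered 2 and 2 without Δset-2 library 2, 3 and 4 without WT library 1, and 3 and 3 without WT library 2, where the second group had 3 lower ones.

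In the lipid, sterol and peroxisome group 9 of 34 genes (26.5%) rose and 3 fell (8.82%), with a median of 0.06, against 21.7% higher and 19.8% lower among all genes. acd-1, an acyl-CoA dehydrogenase gene, had 1052 and 1078 counts in Δset-2 and 162 and 195 in WT (log2 2.47 ± 0.18, adjusted p = 0.0013). acd-2 had 1078 and 716 counts in Δset-2 and 201 and 286 in WT (log2 1.78 ± 0.27), and pex8, of peroxisomal matrix import, was at 1.26 ± 0.20 (adjusted p = 0.0076), with both Δset-2 libraries above both WT libraries. fox-2, the multifunctional enzyme of peroxisomal β-oxidation, had 2216 and 2256 counts in Δset-2 and 1204 and 1052 in WT (log2 0.87 ± 0.20). The fatty acid synthase genes cel-1 and cel-2, a divergent pair with 2474 bp between them, were both at 0.79 against WT and at −0.09 and 0.17 against the parent, where neither passed. Neither passed without Δset-2 library 1, WT library 1 or WT library 2. The median log2 ratio of the group to WT was 0.090 and 0.065 in Δset-2, and 0.015 and −0.096 in ash1(Y888F). Without WT library 2 there were 3 higher genes and 0 lower, without Δset-2 library 2 or WT library 1 there was 1 lower gene, and without Δset-2 library 1 there were 5 higher and 3 lower genes, and fox-2 was not called without WT library 2. In the central carbon group 4 of 47 genes rose (8.51%) and 9 fell (19.1%), with a median of −0.09. gsy-1, glycogen synthase, had 3826 and 3548 counts in Δset-2 and 1794 and 1553 in WT (log2 1.02 ± 0.21), and gnn, glycogenin, had 3309 and 5237 in Δset-2 and 1726 and 1477 in WT (log2 1.30 ± 0.29), neither of which passed without WT library 2. The lower genes were cit-1, 5 of the tca genes and 3 of the ace genes. Relative to WT, the median log2 ratio of this group was 0.022 and −0.37 in Δset-2, and 0.17 and −0.37 in ash1(Y888F). The 9 lower genes of the central carbon group became 1 without Δset-2 library 2, 5 without WT library 1 and 0 without WT library 2, where 2 genes were higher.

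Of 41 DNA repair genes tested (43 in the group), 15 fell (36.6%) and 5 rose (12.2%), with a median of −0.45, against 19.8% lower and 21.7% higher among all genes, and 21 did not pass. Genes for the repair of double-strand breaks by recombination were among the lower ones. mus-23, the MRE11 homologue, had 126 and 147 counts in Δset-2 and 309 and 322 in WT (log2 −1.32 ± 0.20, adjusted p = 0.0071). uvs-6, the RAD50 homologue, and mus-11, the RAD52 homologue, were at −0.57 and −0.93. mus-42 showed the lowest value, with 42 and 54 counts in Δset-2 and 175 and 189 in WT (log2 −2.03 ± 0.26, adjusted p = 0.0049). mus-51, the KU70 homologue of end joining, had 323 and 330 counts in Δset-2 and 490 and 733 in WT (log2 −1.01 ± 0.22). Its partner mus-52 was at −0.14 (255 and 356 counts in Δset-2, 278 and 347 in WT, adjusted p = 0.67), and mus-53, the ligase of that pathway, rose by 1.05. The other higher genes were the photolyase gene phr, the UV endonuclease gene mus-18, the checkpoint kinase gene prd-4 and msh4, a gene of meiotic recombination in yeast. msh4 had 307 and 540 counts in Δset-2 and 65 and 44 in WT (log2 2.83 ± 0.37), and it starts 44 bp after hak-1 on the same strand, so reads that run on from hak-1 and reads of msh4 cannot be told apart. The median log2 ratio of the group to WT was −0.51 and −0.26 in Δset-2, and −0.44 and −0.0011 in ash1(Y888F). Without WT library 2 there were 6 lower genes and 1 higher, and phr, mus-18, prd-4, mus-53 and mus-11 were not called. Without either Δset-2 library 3 genes were higher, and uvs-6 was not called when any library was left out.

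In protein turnover the COP9 signalosome, which removes the activating NEDD8 tag from cullin ubiquitin ligases, stood beside an even proteasome. All 7 csn genes had positive log2 values between 0.33 and 0.57. The 4 called were csn-1, csn-2, csn-3 and csn-7 (57.1%, against 21.7% higher among all genes). csn-1 had 601 and 706 counts in Δset-2 and 384 and 429 in WT (log2 0.57 ± 0.18, adjusted p = 0.053). All 7 csn genes were above both WT libraries in both Δset-2 libraries, and also in ash1(Y888F) library 2. Among all genes tested, 41.7% and 42.7% were so in Δset-2 libraries 1 and 2, and 39.7% in ash1(Y888F) library 2. The median log2 ratio of the csn genes to WT was 0.16 in ash1(Y888F) library 2, against −0.20 in ash1(Y888F) library 1. None of 30 proteasome subunit genes was called, with values from −0.34 to 0.37. Of the 7, 1 passed without Δset-2 library 1 and against the parent, 0 passed without any other library and 0 with DESeq2. The autophagy genes atg-8 and apg-1 rose, atg-8 with 5658 and 10346 counts in Δset-2 and 2993 and 3216 in WT (log2 1.25 ± 0.33, adjusted p = 0.034), but neither passed without WT library 2 (adjusted p = 0.18 and 0.23). Nor did atg-8 pass without WT library 1 or apg-1 without Δset-2 library 2. pep4, a vacuolar protease gene, was at −0.0014.

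In the group of G proteins, cAMP and osmosensing 11 of 38 genes rose (28.9%) and 3 fell (median 0.23), and in that of cell fusion and MAP kinases 7 of 23 rose (30.4%) and 2 fell (median 0.30), beside 21.7% higher among all genes. Their median log2 ratios to WT were 0.19 and 0.24, and 0.18 and 0.23 in Δset-2, against −0.15 and −0.026, and −0.0090 and −0.27 in ash1(Y888F). adv-1, a transcription factor needed for fusion and sexual development, had 4030 and 3099 counts in Δset-2 and 1077 and 956 in WT (log2 1.70 ± 0.23, adjusted p = 0.0057). The receptor gene gpr-6 was above both WT libraries in both Δset-2 libraries (log2 1.57 ± 0.28, adjusted p = 0.011), and gpr-4, a carbon-sensing receptor, had 162 and 391 in Δset-2 and 65 and 65 in WT (log2 1.97 ± 0.44). The NADPH oxidase genes moved apart. nox-2, needed for ascospore germination, had 403 and 327 counts in Δset-2 and 984 and 824 in WT (log2 −1.42 ± 0.22, adjusted p = 0.0072), while nox-1 was at 0.57 ± 0.18 (adjusted p = 0.054). mak-1, the MAP kinase of wall integrity, rose by 0.98. Higher genes in the G protein and fusion groups numbered 1 and 2 without WT library 2, 4 and 4 without Δset-2 library 2, and 6 and 2 without WT library 1. Lower genes numbered 1 and 0 without WT library 2. Of 58 stk and prk protein kinase genes tested, 19 rose (32.8%) and 5 fell (median 0.04), with stk-51 at 1.44 ± 0.18 and stk-25 at −1.96 ± 0.28 having the smallest p. Without a library, in the order Δset-2 library 1, Δset-2 library 2, WT library 1 and WT library 2, there were 10, 5, 6 and 3 higher kinase genes.

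Several conidiation genes rose in these germinated conidia. Higher calls were 83.3% of the conidia markers and 42.9% of the conidiophore genes, against 21.7% of all genes. Lower calls were 16.7% of the hyphal growth genes, against 19.8% of all genes. Of 6 conidia marker genes tested (7 listed), 5 rose and none fell, with a median log2 of 2.75 (con-6 was at 1.96, adjusted p = 0.13, with 297 and 40 counts in Δset-2 and 42 and 38 in WT, and at −0.16 without Δset-2 library 1), and 3 of 7 conidiophore genes rose (median 0.65). eas, the hydrophobin of the spore coat, had 1966 and 999 counts in Δset-2 and 338 and 454 in WT (log2 1.80 ± 0.35, adjusted p = 0.014), but 1333 and 1620 in the parent, from which Δset-2 did not differ (log2 0.09, adjusted p = 0.85). acon-3, an early gene of conidiophore formation, had 40 and 92 counts in Δset-2 and 7 and 19 in WT (log2 2.23 ± 0.60, adjusted p = 0.035), and was not called without Δset-2 library 2 or WT library 1. The summed CPM of the 6 conidia genes was 1698 and 2241 in Δset-2, 748 and 1419 in ash1(Y888F), 356 and 327 in the parent, and 283 and 153 in WT. con-13 was near 0, with 1 and 2 counts in Δset-2 and 1 and 1 in WT. The conidiophore genes had 1 higher call without Δset-2 library 2. Of 6 hyphal growth genes 1, cot-1, fell, but not without Δset-2 library 2 or either WT library. In bulk RNA, fewer cells of a kind and less RNA per cell cannot be told apart.

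Pigment and sexual genes included some large changes. Of 11 genes of secondary metabolism and melanin tested, 5 rose (45.5%) and 1 fell (9.09%). Of 19 genes of sexual development tested, 4 rose (21.1%) and 6 fell (31.6%). Among all genes, 21.7% were higher and 19.8% lower. The tyrosinase gene T had 23 and 194 counts in Δset-2 and 0 and 1 in WT (log2 7.34 ± 1.59, adjusted p = 0.019, and 0.10 and 0.12 without WT library 1 or 2). per-1, the polyketide synthase of perithecial melanin, had 23 and 11 counts in Δset-2 and 3 and 1 in WT (log2 2.90 ± 0.73, adjusted p = 0.030, and 0.10 and 0.19 without Δset-2 library 1 or WT library 2). pre-2, a pheromone receptor gene, had 13 and 13 counts in Δset-2 and 3 and 1 in WT, and sub-1, a regulator of sexual development, fell by 0.99 against WT and was at −0.04 against the parent. pin-c, a gene of heterokaryon incompatibility, had 162 and 315 counts in Δset-2 and 58 and 30 in WT (log2 2.31 ± 0.47, adjusted p = 0.016). Of the perithecium markers, app rose and fsd-1 fell, asd-1 and asd-4 did not pass, and poi-2 and asd-3 had too few reads. fsd-1 was not called without WT library 2, and pre-2 not without Δset-2 library 2 or WT library 2.

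Of 52 chromatin genes of remodelling, deacetylation and elongation 7 rose and 7 fell (13.46% each), below the 21.7% and 19.8% of all genes, with ash1 the lowest. Their median log2 ratio to WT was −0.14 and −0.12 in Δset-2, and −0.31 and −0.0075 in ash1(Y888F). hda-4, a histone deacetylase gene, had 723 and 828 counts in Δset-2 and 336 and 327 in WT (log2 1.11 ± 0.18, adjusted p = 0.0086). The SET-domain genes set-6, set-8 and set-9 rose by 1.52, 0.79 and 1.26, set-6 and set-9 not without Δset-2 library 2, WT library 1 or WT library 2, and set-8 not without Δset-2 library 2 or WT library 2. The group had 4, 2, 4 and 2 higher and 7, 3, 6 and 1 lower genes when Δset-2 library 1, Δset-2 library 2, WT library 1 or WT library 2 was left out. Among 9 histone genes, the variant H4 gene hH4v had 342 and 368 counts in Δset-2 and 163 and 167 in WT (log2 0.99 ± 0.19, adjusted p = 0.013). The linker histone gene hH1 was at 0.59 ± 0.22 and missed the threshold whenever a library was left out.

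Most of the largest changes were in genes without a symbol. Most genes lack one, since only 1118 of the 9730 genes counted have a symbol. NCU01402 (LG V, 3935439 to 3937165) had 7 and 9 counts in Δset-2 and 8632 and 8171 in WT (log2 −10.13 ± 0.35, adjusted p = 0.00027). NCU08413 had 16 and 12 counts in Δset-2 and 2516 and 1590 in WT, and NCU02174 had 2 and 2 in Δset-2 and 283 and 250 in WT (log2 −7.31 ± 0.40 and −7.08 ± 0.38). NCU08441, NCU06063 and the glutathione S-transferase gene gst-4 were also over 16-fold lower. In the parent, NCU08413 had 462 and 402 counts and NCU08441 had 629 and 595, and Δset-2 differed from it by log2 −4.86 and −3.04. Among the higher genes, 2 divergent pairs stood out. NCU09209 and NCU09210 lie on LG I with 1696 bp between their starts. NCU09209 had 7128 and 10461 counts in Δset-2 and 58 and 12 in WT, and NCU09210 had 8452 and 10524 in Δset-2 and 52 and 17 in WT (log2 7.83 ± 0.76 and 7.97 ± 0.60). NCU06412 and NCU06413 lie on LG III with 746 bp between their starts. NCU06412 had 533 and 164 counts in Δset-2 and 2 and 2 in WT, and NCU06413 had 5046 and 1840 in Δset-2 and 13 and 6 in WT (log2 7.25 ± 0.86 and 8.37 ± 0.72). Within each pair the Δset-2 library with more reads of one gene also had more of the other. NCU08052 had 818 and 769 counts in Δset-2 and 9 and 2 in WT, NCU08223 had 621 and 1528 in Δset-2 and 6 and 4 in WT, and NCU00947 had 557 and 2165 in Δset-2 and 8 and 11 in WT, at log2 values from 7.03 to 7.60. NCU02849 and NCU03969 had 0 or 1 count in each WT library, and in Δset-2 221 and 239, and 33 and 300. NCU03969 was not called without WT library 2.

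The called genes with the most reads changed less. ccg-16, a clock-controlled gene, had 76087 and 81067 counts in Δset-2 and 28932 and 35656 in WT (log2 1.18 ± 0.39, adjusted p = 0.066). NCU06294 had 7398 and 47848 counts in Δset-2 and 355 and 304 in WT (log2 6.27 ± 0.97, adjusted p = 0.0076), so the Δset-2 libraries were far apart, although both lay above both WT libraries. The lower genes with the most reads were atp-2, cys-18, the chaperone gene hsp70-2, NCU06843 and NCU10040. NCU10040 had 5011 and 11417 counts in Δset-2 and 29437 and 82228 in WT (log2 −2.85 ± 0.65) and 7612 and 26235 in the parent. ccg-16 missed the threshold without either WT library, and NCU10040 missed it without WT library 2 and against the parent (adjusted p = 0.27).

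Runs of 2 or more genes called in the same direction, with untested genes skipped, held 48.2% of the higher genes (809 in 320 runs) and 42.4% of the lower ones (651 in 271 runs), and with untested genes ending a run they held 680 and 571. How many runs the shares of called genes alone would give was not tested. The longest was a block of 9 lower genes at the left end of LG IV, from 1667 to 33628, with no other gene between them. All 9 are on the H3K27me2/3 list and 2 of them on the ASH1 list. They include pks-5, a polyketide synthase gene, and their log2 values ran from −6.50 to −2.58. NCU09635 had 92 and 386 counts in Δset-2 and 6971 and 34004 in WT, and NCU09636 had 30 and 79 in Δset-2 and 1823 and 6121 in WT. WT library 2 exceeded WT library 1 for each of the 9 genes, and NCU09635 had 1056 and 3685 counts in the parent. Against the parent 5 of the 9 were called, and pks-5 (log2 −2.26, edgeR adjusted p = 0.10), NCU09640, NCU09641 and NCU10572 were not. NCU09641 was also not called without WT library 2. In ash1(Y888F), NCU09635 had 141 and 12382 counts, so this block also differed between libraries of 1 strain.

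**Figure D4:**
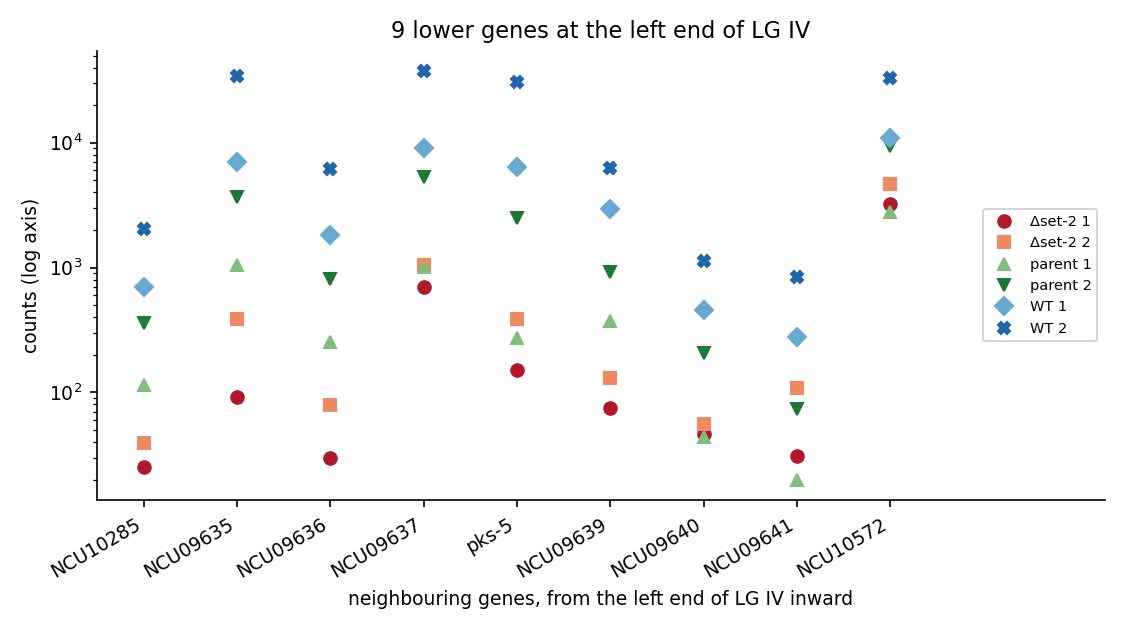
Counts (y axis, log scale) of the 9 neighbouring genes at the left end of LG IV (x axis, in chromosome order) in the Δset-2, parent and WT libraries. The WT points lie above both Δset-2 points for every gene, and WT library 2 is the highest throughout.

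The longest runs of higher genes were on LG III and LG VI. A run of 8 lay on LG III from 4961444 to 5033465, with 11 untested genes among them, and 6 of the 8 are on the H3K27me2/3 list. Its first gene, NCU08549, had 1118 and 956 counts in Δset-2 and 79 and 62 in WT (log2 3.76 ± 0.24, adjusted p = 0.0010), and NCU16710 had 89 and 90 in Δset-2 and 3 and 3 in WT (log2 4.73 ± 0.41). NCU08541 had 1153 and 765 counts in Δset-2 and 118 and 80 in WT (log2 3.16 ± 0.32). These 3 genes stayed between 3 and 259 counts in both ash1(Y888F) libraries. A run of 7 lay on LG VI from 148024 to 172795, with NCU07108 at 574 and 706 counts in Δset-2 and 130 and 71 in WT and NCU07099 at 31 and 56 in Δset-2 and 0 and 3 in WT (log2 2.54 ± 0.34 and 4.64 ± 0.82). When untested genes ended a run, the longest higher run was 5 and the longest lower run was still 9.

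Among tested genes, those on the ASH1 and H3K27me2/3 lists had larger shares of higher calls than the others. The study's lists, each from 1 ChIP-seq sample, hold 1970 genes marked by ASH1 and 836 by H3K27me2/3, and 600 genes are on both. The study defined ASH1-marked genes by H3K36me2 in a Δset-2 strain, so that list does not describe WT chromatin. It shows H3K27me2/3 in WT. Only 19.8% of the genes on both lists had enough reads for the test, and a gene at rest in WT could pass that filter only if it was higher in Δset-2, so the shares among tested genes are given as a description. Of the 119 tested genes with both marks, 51.3% were higher and 15.97% lower (median 1.08). With H3K27me2/3 only, 41.4% of 145 were higher and 15.9% lower, with ASH1 only, 35.1% of 655 were higher and 20.2% lower, and with neither, 19.4% of 6822 were higher and 19.9% lower (medians 0.80, 0.44 and −0.02). At an average log2 CPM of at least 3, taken over all 4 libraries and so with the same selection of genes that are higher in Δset-2, the higher share was 54.0% of 50 with both marks, 44.9% of 89 with H3K27me2/3 only, 33.5% of 278 with ASH1 only and 18.2% of 6168 with neither. The lower share was then 22.0, 16.9, 26.3 and 21.2% in the same order, and the median for ASH1 only was 0.11. Without the low-count filter, 69 of 334 genes with both marks were higher and 23 lower. With H3K27me2/3 only, 58 of 200 were then higher and 22 lower, and with ASH1 only, 229 of 1153 were higher and 133 lower. With neither, 1241 of 7367 were higher and 1288 lower, so the higher shares lay much closer together than among the tested genes. The higher ASH1-marked genes numbered 145 without WT library 2, and 188 without Δset-2 library 2, in place of 291.

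**Figure D5:**
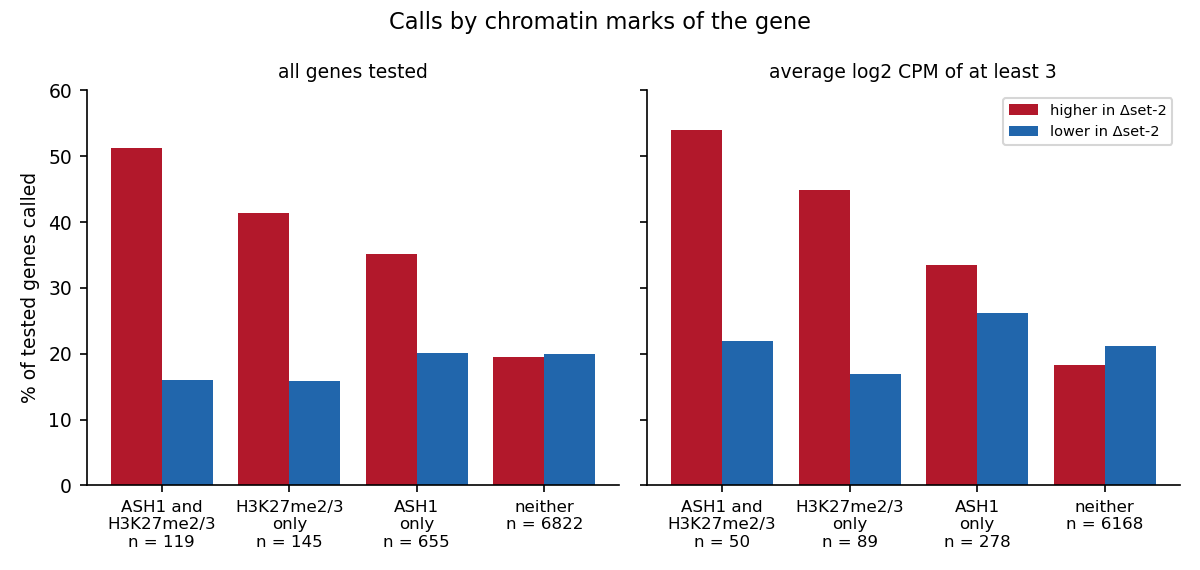
Share of genes called higher or lower in Δset-2 (y axis, %) among genes with ASH1 and H3K27me2/3, H3K27me2/3 only, ASH1 only or neither (x axis), for all genes tested (left) and for genes with an average log2 CPM of at least 3 (right). The higher share was 51.3% with both marks and 19.4% with neither on the left, and 54.0% with both and 18.2% with neither on the right.

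Few genes were switched fully. There were 7 genes that had no count in either WT library and at least 10 in each Δset-2 library. They are NCU05928 (96 and 142 counts in Δset-2, at least 73.5-fold higher against a floor of 3 counts over the WT libraries), NCU17050 (49 and 69, at least 36.4-fold), NCU03373 (15 and 30, at least 13.9-fold), NCU02146 (22 and 14, at least 11.1-fold), NCU07369 (20 and 11, at least 9.57-fold), NCU00039 and NCU04955. In the other direction, NCU00298 on LG III had 0 and 0 counts in Δset-2 and 43 and 30 in WT, at least 26.3-fold lower in Δset-2. matA-1 also met this rule (at least 10.1-fold) and is in the counts below. It is particular to mating type A and the Δset-2 strain is mating type a. Its 0 counts therefore do not show a gene switched off. Counted with 1 library left out, such genes numbered 13 and 4 without Δset-2 library 1, 11 and 5 without Δset-2 library 2, 21 and 4 without WT library 1, and 25 and 3 without WT library 2, in place of 7 and 2. NCU00298 lies outside the set-2 locus, at 3356007 to 3357626, and had 36 and 59 counts in the parent.

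The share of calls also varied with position, span and level. Genes within 50 kb of a chromosome end were lower in 27.97% and higher in 20.3% of 143 cases, whereas between 200 and 500 kb from an end 29.0% of 649 were higher. The lower genes within 50 kb include the 9 neighbours at the left end of LG IV, so this share rests in part on that block. By span, 1547 genes of the longest spans (3564 bp and over) held 13.7% lower genes and 1553 of the shortest (up to 1620 bp) 21.2%, with medians of 0.08 and 0.05. By level, the 1549 genes of lowest average log2 CPM held 32.7% higher and 11.8% lower genes, and the 1548 of highest 16.99% and 23.97%.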

How the data were processed

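RNA was poly-A selected and made into stranded libraries that were read from 1 end. Per the labels and the study's methods, the authors deposited raw counts per gene from HTSeq, made from reads cleaned in Stacks and placed on the genome by TopHat2 (versions not given in the sources used here). The deposited gene lists for ASH1 and H3K27me2/3, with positions on the corrected OR74A NC12 assembly, have a score column that is 0 throughout, and only list membership was used. Deposited tables of the authors' own comparisons hold fold changes and p-values and were not used. Of 8 count columns without names in 1 table, 4 equal known libraries and 4 were not used because nothing names their sample.

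Counts were fitted with edgeR 4.0.16 in R 4.3.3 (TMM scaling and filterByExpr at 10 counts), with calls at 0.1 on p-values of the quasi-likelihood test adjusted by Benjamini and Hochberg, and with the 4 libraries of Δset-2 and WT. Errors are approximate standard errors of log2 fold changes. Each is the absolute log2 fold change divided by the square root of the quasi-likelihood F statistic, and is rough for genes with few reads. Reads outside genes (9.56 to 14.8% in these libraries) were left out. CPM ratios by library had 0.5 added. Replicates are duplicates, so p-values rest on 2 libraries a strain. Alternatives were DESeq2 1.42.0, other normalization, filter and strains in the fit, a replicate block, each library left out, the parent as control and a stricter threshold. Only the main edgeR fit was run on simulated counts, in a single run. The simulation gave all genes the same spread and changed far fewer genes than were called here. It therefore does not show how the fits behave on these data. Named genes were those of the genotypes and their neighbours, the 10 largest changes in each direction over all genes and over genes with a symbol, the 5 called genes with the most reads, the 3 smallest p in each of 32 gene lists with members needed for a role, the longest runs and genes with counts in 1 strain only. Members and lists were chosen with earlier results of these data known. Of the lists, 22 were fixed from the labels, 4 were marker lists and 6 were added. Import, complex I and other respiratory genes were planned together. The acw and ncw, csn and proteasome subunit groups are parts of larger lists. Contrasts between such parts are descriptions and were not tested.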

Additional observations from a re-analysis of the deposited data

Results flagged for a closer look

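Reads that overlapped no gene made up 11.5% of the reads handled by HTSeq in Δset-2 library 1 and 11.12% in Δset-2 library 2, against 7.81% and 6.83% in the WT libraries, a signal outside the gene counts that was above the control level. The share was 10.56% and 10.99% in ash1(Y888F), and 3.54% and 4.10% in the parent.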

How the results depend on the processing

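Higher and lower genes numbered 1423 and 1441 with DESeq2, 1469 and 1240 with the replicate block, and 2116 and 1948 with the parent as control. Leaving out 1 library gave 755 to 1452 higher and 695 to 1501 lower genes, 145 to 283 higher ASH1-marked genes, 11 to 25 genes with counts in Δset-2 only and 3 to 5 in WT only. At an average log2 CPM of at least 3, 120 ASH1-marked genes were higher and 84 lower. With untested genes ending a run, the longest higher run had 5 genes. The library numbers are not stated to pair the strains (r = −0.11 between their library differences over 8328 genes). A crossed replicate block, chosen after seeing the data, gave 1893 and 1806 genes. With 2 libraries a strain, the lone library was taken to vary like the other strain. Against the parent the sign turned for NCU09641 (0.67), cel-1 (−0.087), mim1 (−0.10), pep4 (0.13), asd-4 (−1.06) and mus-52 (7.24, deleted in the parent). With 1 library left out, values crossed 0 for asd-1 (−0.060 to 0.68), asd-4 (−0.31 to 0.57), con-6 (−0.16 to 2.77), mus-52 (−0.40 to 0.036) and pep4 (−0.18 to 0.11), none of which was called with all 4 libraries. The cause was not tested.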
